A study of Homo sapiens with 15 samples.

Results

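The DNA replication machinery was described through 45 genes that encode the proteins assembling at origins, unwinding the template and copying it, chosen by name as the subunits of the origin recognition complex, the MCM2-7 helicase, GINS, the replicative polymerases, the sliding clamp, its loader and their partners, together with 4 enzymes of nucleotide supply. All 45 were measured, among 18132 genes in all. Expression was measured in 15 established cell lines of human non-small cell lung cancer (NSCLC), with 1 Affymetrix PrimeView array per line. All lines were grown untreated and unirradiated. By the study's methods they grew in RPMI medium, except A549 and Calu3 (DMEM) and Calu1 (McCoy medium). Medium and line cannot be told apart for these lines, and its part in their values was not tested. The study divided them by SF2, the fraction of cells that form colonies after a 2 Gy dose, into 8 radioresistant lines (H1975, A549, HC827, H358, H2228, H3122, H460 and H1650, from the highest SF2 down) and 7 radiosensitive lines (H520, Calu1, H1437, H226, Calu3, H2009 and H1781, likewise). The SF2 of H520 was taken by the study from the literature. By histology, Calu1, H226 and H520 were squamous, H1437 and H358 bronchioloalveolar and H460 large cell. The other 9 lines (A549, Calu3, H1650, H1781, H1975, H2009, H2228, H3122 and HC827) were adenocarcinomas. All 3 squamous lines were radiosensitive, whereas 6 adenocarcinoma lines were radioresistant and 3 were radiosensitive. Each line is represented by 1 culture, so the spread between lines is the only error available, and the spread between cultures of a line is unknown.

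Replication starts at origins that are licensed in G1. The origin recognition complex (ORC), CDC6 and CDT1 load the MCM2-7 ring onto DNA, and geminin, the product of GMNN, blocks CDT1 later in the cycle. CDC45 and GINS then join the ring to form the active helicase, with MCM10 required for its firing. Polymerase alpha-primase lays down primers, RFC loads the PCNA clamp, polymerases delta and epsilon extend the strands, RPA coats single-stranded DNA, and FEN1 and LIG1 trim and seal Okazaki fragments. RRM1, RRM2, TYMS and TK1 supply deoxynucleotides. Many of these genes are transcribed at the G1/S border by E2F factors, which the RB protein holds back.

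Because the members are known for that shared regulation, their promoters are shown beside the values. RefSeq promoter windows on GRCh38.p14, covering 250 bases before to 50 bases after a gene's start, were matched by symbol for 39 of the 45 members. MCM4, MCM5, GINS4, POLD3, RPA2 and RPA3 were not matched. The windows were searched on both strands for 4 spellings of an E2F-type site, TTTCCCGC, TTTGGCGC, TTTCGCGC and TTTGCCGC, with overlapping matches counted. A match was found in 3.31% of all 35116 windows and, for 3.99% of all 27305 genes, in at least 1 window. Of the members, 19 of 39 did, namely MCM2, MCM3, MCM6, MCM7, ORC3, CDC6, CDT1, GMNN, GINS1, GINS2, GINS3, POLA1, POLA2, POLE, POLE2, PCNA, RFC3, LIG1 and TYMS. For MCM7, GMNN and PCNA this was so in 1 of several windows. The 8 stretches below belong to members whose values are described further on, with ORC3 included because its values ran against most of the others. They are written 5′ to 3′ along the gene, with the matches in capitals and at most 10 bases past the start.
MCM6 (chr2:135876497-135876620, minus strand): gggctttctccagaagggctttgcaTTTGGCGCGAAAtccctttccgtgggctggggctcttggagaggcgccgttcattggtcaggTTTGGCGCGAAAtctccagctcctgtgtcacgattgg
POLE2 (chr14:49688205-49688244, minus strand): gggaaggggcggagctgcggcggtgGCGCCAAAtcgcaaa
PCNA (chr20:5126649-5126706, minus strand): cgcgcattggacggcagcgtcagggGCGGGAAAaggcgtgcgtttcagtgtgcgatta
POLA2 (chr11:65261884-65261941, plus strand): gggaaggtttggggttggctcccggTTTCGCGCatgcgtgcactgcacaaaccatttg
RFC3 (chr13:33818069-33818126, plus strand): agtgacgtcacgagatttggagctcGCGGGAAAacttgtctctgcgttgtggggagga
LIG1 (chr19:48170426-48170483, minus strand): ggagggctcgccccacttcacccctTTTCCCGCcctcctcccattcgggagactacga
CDT1 (chr16:88803729-88803786, plus strand): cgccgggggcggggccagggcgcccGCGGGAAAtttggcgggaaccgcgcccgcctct
ORC3 (chr6:87590098-87590144, plus strand): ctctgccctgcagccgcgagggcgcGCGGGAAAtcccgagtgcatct

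In MCM6 the 4 matches form 2 overlapping pairs, so that a site on one strand shares bases with a site on the other. Its first match began 152 bases before the start, that of LIG1 114 bases and that of POLE2 5 bases before it. A match is a description of the letters only. The 19 members with a match had a median log2 difference of 0.44 between radioresistant and radiosensitive lines, and the 20 members with windows and no match had a median of 0.36. Between squamous and adenocarcinoma lines these medians were -0.72 and -0.47.

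The line labels were set against marker genes. KRT8 and KRT18, keratins of simple epithelium, were at 10.96 or more in all 15 lines, and KRT19 was lowest in A549 (9.74). Among markers of cells of other kinds, the leukocyte gene PTPRC stayed between 2.96 and 3.45 and CD3E between 4.55 and 4.93. CD14, from the same list, was uneven. It read 9.64 in H1437 and 6.12 in A549, against 3.74 to 5.33 in the other lines, and the cause was not tested. EPCAM and CDH1 were low in H226 (4.03 and 3.49) and in H460 (4.21 and 3.38). CDH1 also read 4.33 in Calu1 and 6.95 in H520, so that it was lower in all 3 squamous lines than in any adenocarcinoma line (8.10 to 12.91), and its part in the results by histology was not tested. The squamous label had uneven marker support, since KRT5 was raised in H226 alone (8.66), SOX2 reached 13.07 in H520 against 4.47 in Calu1 and 4.35 in H226, and DSG3 was at 4.65 or less in all 3. SOX2 was also above 10 in H1781, H3122, H2009 and H358, and DSG3 was raised only in the adenocarcinoma line H1650 (8.35). The squamous markers TP63 and KRT6A were planned as well but had no value among the genes measured. Markers of lung adenocarcinoma were uneven as well. NKX2-1 read 8.95 in the squamous line Calu1 and was low in the adenocarcinoma lines A549 (3.84), H1650 (4.18) and Calu3 (4.31). NAPSA was raised in HC827 alone (10.99, against 7.90 or less elsewhere), and SFTPB stayed between 5.74 and 6.30 in all 15 lines. The actin 3′ to 5′ difference, a measure of RNA integrity, was 2.09 in H1781 and 1.90 in H3122, against 0.63 to 1.30 in the other lines, and over the 15 lines it had an r of 0.03 with the mean of the members.

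In mean log2 signal all 45 members lay above the median gene (6.55), MCM5 only just (6.62), and the median member, at 9.06, exceeded 83.8% of all genes. In Calu1, ORC1 (5.51), CDC45 (5.53), MCM10 (5.26) and CDT1 (5.34) lay below the array median, as did ORC1 in H1781 (5.85). Signals of different genes depend on their probes and on the choice of the brightest probe set. These ranks among all genes are therefore rough, and single members were not compared with each other by signal. The median SD over the 15 lines was 0.63 for the members and 0.57 for the genes in the brighter part of the table. CDC6, the ATPase that helps ORC to load the helicase, varied most, with an SD of 1.20 and values from 7.64 in Calu1 to 12.37 in Calu3. MCM4 and GINS4 followed with an SD of 1.10 each, MCM4 ranging from 7.92 in H520 to 11.37 in H358 and GINS4 from 5.98 in H1781 to 9.28 in Calu3. The steadiest members were ORC4 (SD 0.26), POLD2 (SD 0.28) and MCM5 (SD 0.31). ORC4 stayed between 9.02 in H1781 and 9.93 in H520, POLD2, an accessory subunit of polymerase delta, between 9.91 in H358 and 11.12 in H1975, and MCM5 between 6.11 in Calu1 and 7.04 in A549, a low signal at which array differences are compressed.

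Seen line by line, the members moved together in a few lines. Each member was centred on its mean over the 15 lines and the 45 centred values were averaged per line. This mean was -0.97 in Calu1, -0.71 in H460 and -0.46 in H520, where 1 log2 unit is a factor of 2. It was 0.58 in H1975, 0.56 in A549 and 0.52 in H358, and lay between -0.21 and 0.32 in the other 9 lines. Calu1 was below the gene's mean in 40 of the 45 members and was the lowest of all lines for 18 of them. H460 was also below the mean in 40 members and lowest for 4, and H520 was below it in 32 and lowest for 8. At the other end A549 was above the mean in 40 members, H1975 in 39 and H358 in 38, and these lines were the highest for 8, 9 and 9 members. H2228 was the highest for another 7, namely MCM3, ORC1, ORC6, CDT1, POLD1, POLE and LIG1. The same counts per line were not made over all genes, so they describe the members and are not read as particular to them.

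**Figure D1:**
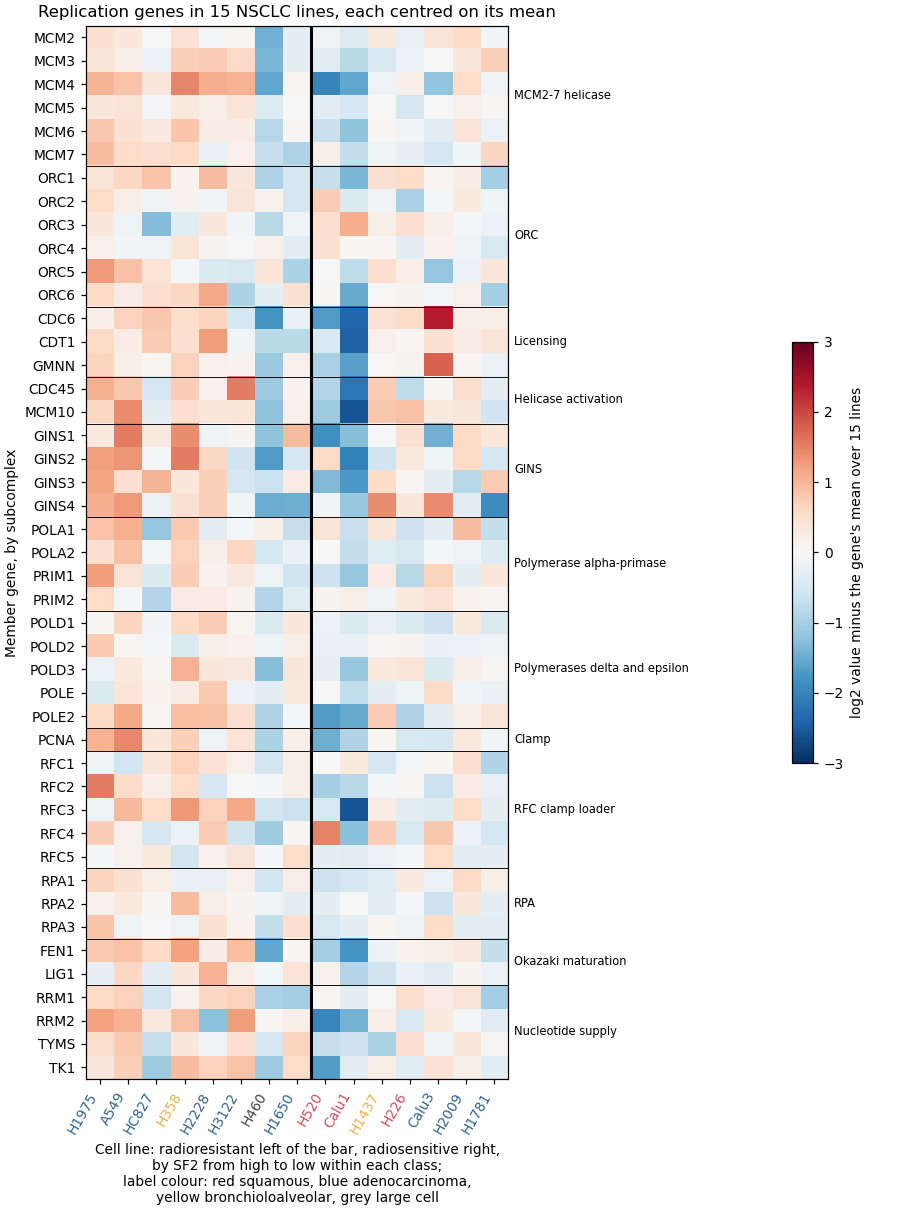
Heat map of the 45 members (rows, by subcomplex) in the 15 lines (columns), as log2 value minus the gene's mean over the lines. Radioresistant lines stand left of the bar and radiosensitive lines right of it, each from high to low SF2. The blue columns are H460, H520 and Calu1, with means of -0.71, -0.46 and -0.97.

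Every subcomplex but ORC averaged below 0 in Calu1, H460 and H520, with licensing and helicase activation genes among the lowest in each. PCNA was at -0.91 in Calu1 and -0.95 in H460, and the nucleotide enzymes averaged -0.66 and -0.62 there. In Calu1 the deepest were CDC45 and MCM10 (mean of the pair -2.37) and the licensing genes CDC6, CDT1 and GMNN (mean -2.15), followed by GINS (-1.54) and FEN1 with LIG1 (-1.32), while RPA was at -0.26 and ORC at -0.49. In H460 GINS (-1.25), licensing (-1.24) and CDC45 with MCM10 (-1.15) were lowest, MCM2-7 averaged -1.06 and ORC -0.24. In H520 PCNA stood lowest at -1.47, the nucleotide enzymes averaged -1.08, licensing -1.04 and CDC45 with MCM10 -0.99, whereas ORC was at 0.17, polymerase alpha-primase at -0.02 and RFC at -0.04. RFC4, a clamp loader subunit, was at its highest of all lines in H520, at 12.11, against 9.36 in Calu1.

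Calu3 stood out in licensing. Its licensing mean was 1.53, with CDC6 at 12.37 and GMNN at 12.01, while every other subcomplex lay between -0.50 and 0.22. Among the 9 adenocarcinoma lines the next values were 10.83 for CDC6 in HC827 and 10.89 for GMNN in H1975. The third licensing gene, CDT1, read 8.23 in Calu3 and was higher in H358 (8.28), H1975 (8.35), HC827 (8.55) and H2228 (9.03).

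The high lines were also uneven. A549 led in PCNA (13.05), with GINS at 1.16 and CDC45 with MCM10 at 1.11. H1975 led in RFC2 (10.23), PRIM1 (10.30) and POLD2 (11.12), and its PCNA read 12.66. H358 led in MCM4 (11.37), MCM6 (10.94) and FEN1 (10.68). H3122 had the highest CDC45 (9.21), RRM1 (10.85) and RRM2 (11.61), although its GINS mean was -0.29 and its ORC mean -0.13. In H2228 the nucleotide mean was -0.01 with RRM2, the cell cycle-regulated subunit of ribonucleotide reductase, at 9.13, the lowest of the radioresistant lines, and RRM1 at 10.76.

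By radiation class, the mean of the centred members ranged from -0.71 to 0.58 in the radioresistant lines, with a median of 0.27 and a mean of 0.18 ± 0.44 (SD, n = 8), and from -0.97 to 0.17 in the radiosensitive lines, with a median of -0.06 and a mean of -0.20 ± 0.40 (SD, n = 7). The classes overlapped. H460 was below 6 of the 7 radiosensitive lines, and 5 radioresistant lines were above every radiosensitive line. By histology it was -0.50 ± 0.45 in the squamous lines (SD, n = 3) and 0.18 ± 0.27 in the adenocarcinoma lines (SD, n = 9). The bronchioloalveolar lines read 0.52 in H358 and 0.07 in H1437.

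**Figure D2:**
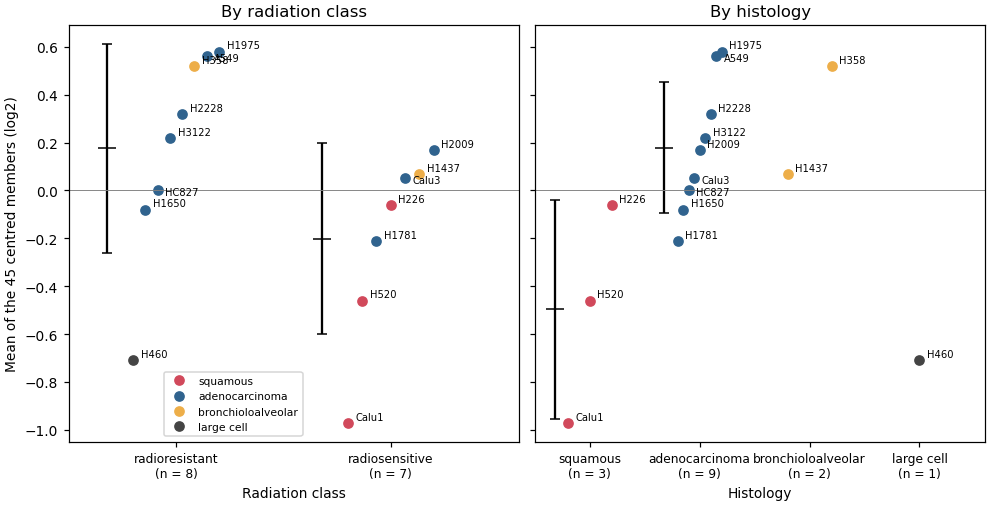
Mean of the 45 centred members per line (log2) by radiation class and by histology, with 1 point per line, coloured by histology, and the mean ± SD of each group of 3 or more lines as a black bar. H226 lies at -0.06, well above the other squamous lines H520 and Calu1.

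The comparison of radioresistant with radiosensitive lines asked which genes go with the response to radiation. Of the 45 members, 41 had a mean above that of the radiosensitive lines, beside 48.3% of all genes, and the median difference was 0.33 log2 units, beside -0.01 over all genes. Of the members, 7 were higher in the radioresistant lines with an unadjusted p under 0.05 (limma), beside 1.43% of all genes, and 1 was lower, beside 1.75%. After Benjamini-Hochberg adjustment over all genes none of the 45, and 0% of all genes, passed 0.05, and the lowest adjusted p was 0.998. Only MCM4 also differed by more than 1 log2 unit, as 0.546% of all genes did in either direction. The 8 members follow by their place at the fork.

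MCM4, a subunit of the helicase ring, lay between 8.35 and 11.37 in the radioresistant lines with a median of 10.85, and between 7.92 and 10.47 in the radiosensitive lines with a median of 9.77. In 5 radioresistant lines it was above every radiosensitive line, while H460, at 8.35, was the lowest of its class. The difference was 1.15 ± 0.47 (SE; exact permutation p = 0.0426, adjusted p = 0.998). MCM4 also stands in a set of genes that the study displayed after choosing it on these lines, so its direction is not independent evidence. The 4 other probe sets of MCM4 gave differences between 1.04 and 1.37. Of the rest of the ring, MCM6 differed by 0.53 ± 0.26 (exact p = 0.0727), MCM5 by 0.31 ± 0.14 (exact p = 0.0528), MCM7 by 0.23, MCM3 by 0.21 and MCM2 by -0.12.

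ORC3, a core subunit of the origin recognition complex, ran the other way. It lay between 7.42 and 9.08 in the radioresistant lines with a median of 8.61, and between 8.56 and 9.82 in the radiosensitive lines with a median of 8.94. The lowest values were those of HC827 (7.42) and H460 (7.89), and the 3 highest were those of the squamous lines. The difference was -0.59 ± 0.25 (SE; exact permutation p = 0.0345). All 6 other ORC3 probe sets gave differences below 0, between -0.57 and -0.23. The other ORC genes differed by 0.06 (ORC4) to 0.61 (ORC6, exact p = 0.0911).

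POLA2, the regulatory subunit of polymerase alpha, lay between 7.41 and 8.80 in the radioresistant lines with a median of 8.26, and between 7.22 and 7.95 in the radiosensitive lines with a median of 7.57. A549, H3122, H358, H1975 and H2228 were above all 7 radiosensitive lines. The difference was 0.56 ± 0.20 (SE; exact permutation p = 0.0214, adjusted p = 0.998). POLD1, the catalytic subunit of polymerase delta, lay between 7.27 and 8.44 with a median of 7.91 in the radioresistant lines, while in the radiosensitive lines the median was 7.30 and 6 of the 7 lay between 7.08 and 7.52. Its difference of 0.51 ± 0.18 (SE) had the lowest limma p of the members (0.0143, exact permutation p = 0.0186). In the radiosensitive class only H2009 was above the radioresistant median.

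PCNA, the sliding clamp, lay between 10.65 and 13.05 in the radioresistant lines with a median of 11.97, and between 10.14 and 11.91 in the radiosensitive lines with a median of 11.12. No radiosensitive line reached the radioresistant median. The difference was 0.82 ± 0.34 (SE; exact permutation p = 0.0370). RFC2, a subunit of the complex that opens and loads the clamp, lay between 8.18 and 10.23 with a median of 8.89 in the radioresistant lines, and between 7.70 and 8.95 with a median of 8.48 in the radiosensitive lines. H1975 read 10.23 and the next line, H358, 9.24. The difference was 0.65 ± 0.27 (SE; exact permutation p = 0.0317). RFC3, another member that the study displayed after choosing it on these lines, differed by 0.89 ± 0.44 (exact p = 0.0702), and RFC4 by -0.17.

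LIG1, the ligase that seals Okazaki fragments, lay between 7.56 and 8.97 with a median of 8.18 in the radioresistant lines, and between 7.05 and 8.06 with a median of 7.72 in the radiosensitive lines. Its difference was 0.52 ± 0.21 (SE; exact permutation p = 0.0311). FEN1, the flap endonuclease that acts before it, differed by 0.84 ± 0.40 (exact p = 0.0715). RRM2 lay between 9.13 and 11.61 with a median of 10.95 in the radioresistant lines, and between 8.38 and 10.65 with a median of 10.05 in the radiosensitive lines. Its difference was 0.99 ± 0.41 (SE; exact permutation p = 0.0410), while RRM1, the partner subunit of the same enzyme, differed by 0.04 ± 0.33.

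**Figure D3:**
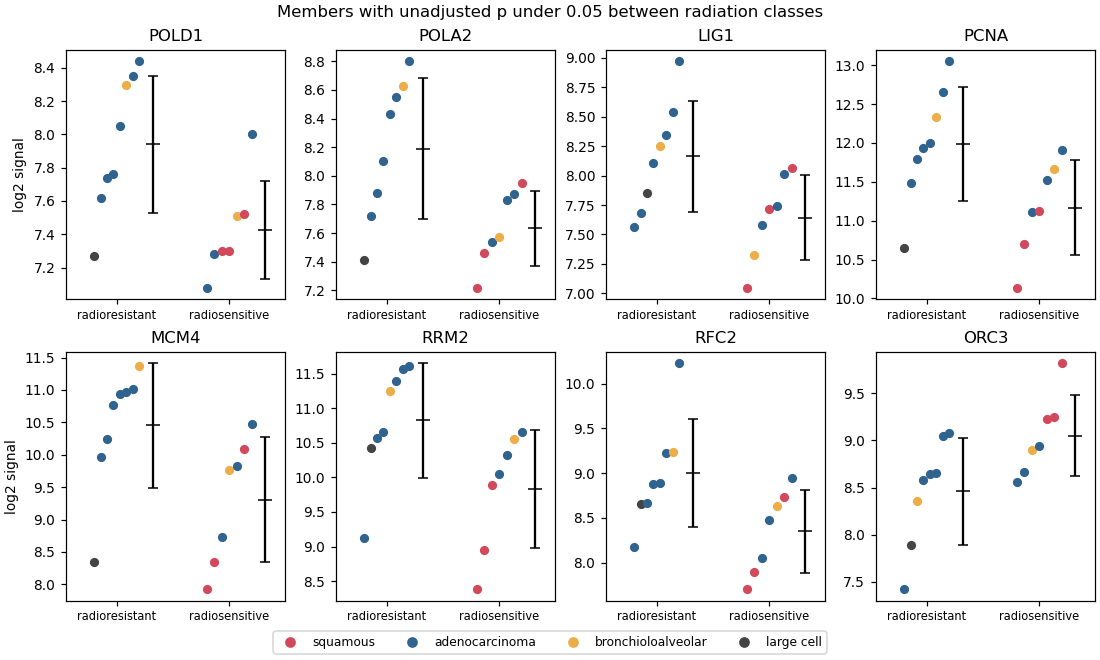
Log2 signal of the 8 members with an unadjusted p under 0.05 between radiation classes, 1 point per line coloured by histology, with the mean ± SD of each class as a black bar. In PCNA, MCM4 and RRM2 squamous lines are the lowest points of the radiosensitive class (10.14, 7.92 and 8.38, all in H520), and in ORC3 they are its 3 highest points.

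Histology moved with these differences, and the design does not separate them fully, because all squamous lines are radiosensitive. Without the 3 squamous lines, 35 of the 45 members were still higher in the radioresistant lines, beside 49.9% of all genes, but the median difference was 0.13 and 0 members had an unadjusted p under 0.05, beside 3.30% of all genes. In that comparison MCM4 differed by 0.76 ± 0.51, PCNA by 0.44 ± 0.37 and RRM2 by 0.43 ± 0.41 (SE). POLD1 (0.47 ± 0.24), POLA2 (0.49 ± 0.25) and LIG1 (0.50 ± 0.25) had estimates close to those over 15 lines, which were 0.51, 0.56 and 0.52. ORC3 differed by -0.31 ± 0.28 without the squamous lines and by -0.15 ± 0.34 within the adenocarcinoma lines, against -0.59 over 15 lines. Single lines weighed as well. With each line left out in turn, POLD1 and POLA2 had an unadjusted p under 0.05 in all 15 fits, LIG1 and PCNA in 11, RFC2 in 10, RRM2 and ORC3 in 9 and MCM4 in 8. Without Calu1 only POLD1 and POLA2 had an unadjusted p under 0.05, beside 2.86% of all genes in either direction. Without H460 there were 15 such members, all higher in the radioresistant lines, beside 3.56% of all genes.

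The 2 classes are a division of a continuous measure, so SF2 itself was also used. The slope on SF2 was above 0 for 42 of the 45 members, beside 49.0% of all genes, with a median of 0.0822 log2 units per 0.1 of SF2, beside -0.00114 over all genes. An unadjusted p under 0.05 with a positive slope was found for 3 members, beside 2.18% of all genes, and with a negative slope for 0 members, beside 2.37%. These were POLA2, RFC2 and PCNA, and again 0% of all genes passed after adjustment (lowest adjusted p = 0.998).

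POLA2 had a slope of 0.145 ± 0.0494 per 0.1 of SF2 (SE). Over the 15 lines its r was 0.62 (permutation p = 0.0140) and its rho 0.67 (permutation p = 0.00868). RFC2 had a slope of 0.170 ± 0.0665, an r of 0.56 (permutation p = 0.0278) and a rho of 0.53 (permutation p = 0.0451). PCNA had a slope of 0.193 ± 0.0860, an r of 0.51 (permutation p = 0.0515) and a rho of 0.57 (permutation p = 0.0301). Such relations were computed for all 45 members, and none passed after adjustment over all genes. Leaving out H2009 and H1781, the 2 lines farthest from the median SF2, gave an r of 0.66 for POLA2, 0.77 for RFC2 and 0.74 for PCNA. A549 was the highest line in POLA2 and PCNA and H1975 in RFC2, and these lines had the highest SF2. Without H1975 the RFC2 slope was 0.0945, and its unadjusted p was no longer under 0.05. With each line left out in turn, the p of POLA2 stayed under 0.05 in all 15 fits and that of RFC2 in 14, whereas that of PCNA did so in 7 and not without A549, Calu1, Calu3, H1975, H226, H3122, H358 or HC827 (slopes of 0.139 without A549 to 0.256 without H2009). By rank, POLA2 had the lowest p of the members, followed by ORC6 (rho 0.61, permutation p = 0.0179) and POLD1 (rho 0.59, permutation p = 0.0220), whose slopes had unadjusted limma p-values of 0.0684 and 0.0520. MCM6, RRM2, PCNA, FEN1, MCM4, RFC2 and RPA2 came next, with rho between 0.53 and 0.58. The share of all genes with such a rho was not computed, so these members are not read as an excess. Without the squamous lines 39 of 45 slopes were above 0, beside 49.5% of all genes, and POLA2 and RFC2 had an unadjusted p under 0.05, beside 2.34% of all genes with a positive slope.

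The squamous lines were then set against the adenocarcinoma lines. Only 5 of the 45 members had a mean in the squamous lines above that of the adenocarcinoma lines, beside 51.3% of all genes, and the median difference was -0.54, beside 0.01 over all genes. An unadjusted p under 0.05 was found for 18 members lower in the squamous lines, beside 4.22% of all genes, and for 1 member higher, beside 4.48%. None passed after adjustment over all genes, as was so for 0% of all genes. The lowest adjusted p was 0.101 among the members (POLE2) and 0.0849 among all genes. In 4 members, MCM5, CDC45, PRIM1 and POLE2, all 3 squamous lines lay below all 9 adenocarcinoma lines, which held for 0.822% of all genes, and in ORC3 they lay above, which held for 0.767%.

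POLE2, an accessory subunit of polymerase epsilon, read 6.61 in Calu1, 7.22 in H226 and 6.46 in H520, against 7.86 to 9.25 in the adenocarcinoma lines with a median of 8.48. No squamous line reached the lowest adenocarcinoma line, Calu3. The difference was -1.73 ± 0.28 (SE; exact permutation p = 0.00909, the smallest that 3 against 9 lines allow). CDC45 read 5.53 in Calu1, 6.91 in H226 and 6.79 in H520, against 7.18 to 9.21 in the adenocarcinoma lines with a median of 7.81, a difference of -1.66 ± 0.43 (SE; exact permutation p = 0.00909). MCM5 read 6.11, 6.12 and 6.28 in the same order of lines, against 6.54 to 7.04 in the adenocarcinoma lines with a median of 6.77. Its difference of -0.61 ± 0.13 (SE; exact permutation p = 0.00909) was small but its squamous lines were close together. PRIM1, the catalytic primase subunit, read 7.92, 8.23 and 8.45, and the lowest adenocarcinoma line, H1650, read 8.47.

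By subcomplex, 5 of the 6 MCM2-7 genes were among the 18 lower members, with MCM4 at -1.54 ± 0.53, MCM6 at -0.86 ± 0.25, MCM3 at -0.72 ± 0.24 and MCM2 at -0.40 ± 0.18 (SE), and MCM7 was not among them (-0.36 ± 0.37). All 3 licensing genes were, with CDC6 at -1.64 ± 0.63, CDT1 at -1.28 ± 0.49 and GMNN at -1.17 ± 0.41. Further along were GINS3 (-1.31 ± 0.48), PCNA (-1.29 ± 0.37), RFC3 (-1.40 ± 0.51), RPA1 (-0.51 ± 0.23), FEN1 (-1.24 ± 0.40), RRM2 (-1.59 ± 0.50) and TK1 (-1.05 ± 0.41). The other RPA1 probe set gave a difference of 0.14. On the mean of probe sets RPA1 (-0.18), RFC3 (-0.75) and MCM2 (-0.35) no longer had an unadjusted p under 0.05. For PCNA the squamous lines read 10.70, 11.12 and 10.14 in Calu1, H226 and H520, against 11.11 to 13.05 in the adenocarcinoma lines, so that only H226 reached the lowest of them. The 1 member higher with such a p was ORC3, by 0.81 ± 0.30 (exact permutation p = 0.00909). The other ORC genes differed by -0.71 (ORC1) to 0.16 (ORC4), none with an unadjusted p under 0.05. In all, 4 of the 6 ORC genes were lower in the squamous lines.

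**Figure D4:**
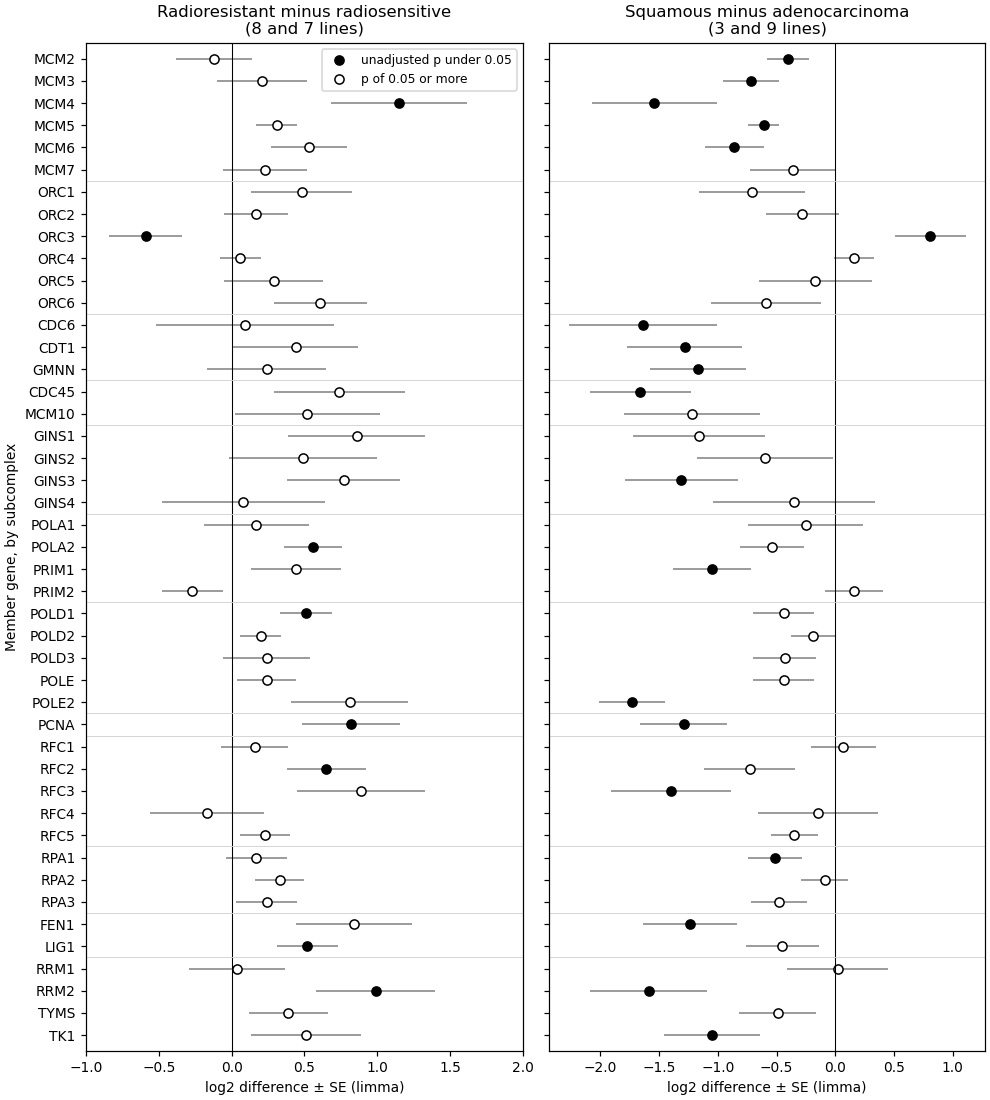
Log2 difference ± SE (limma) of each member for radioresistant minus radiosensitive lines and for squamous minus adenocarcinoma lines, with filled points where the unadjusted p was under 0.05. In the first panel 41 members lie right of 0, in the second 40 lie left of it, and ORC3 (-0.59 and 0.81) and PRIM2 (-0.27 and 0.16) lie on the other side in both.

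These comparisons share lines and are not independent of each other. Set against the 3 radiosensitive adenocarcinoma lines alone, which holds the radiation class fixed, the squamous lines had a median difference of -0.36 over the members, 38 of 45 were below 0, beside 47.1% of all genes, and 8 members had an unadjusted p under 0.05. Of these 7 were lower in the squamous lines, beside 3.72% of all genes, and 1 was higher, beside 2.01%. Without Calu1 the median against all adenocarcinoma lines was -0.37 and 7 members had an unadjusted p under 0.05, beside 8.56% of all genes in either direction. Without H226 the median was -0.80 and 24 members had one, beside 11.5% of all genes. POLE2, MCM5, CDC45, PCNA and PRIM1 had an unadjusted p under 0.05 whichever of the 12 lines was left out. RPA1 and MCM2 had one in 3 and 4 of the 12 fits, and the rest of the 19 lost it only without Calu1 or H520. In whole cultures, fewer cells in S phase and less RNA of these genes per cell cannot be told apart. A list of 10 general proliferation genes moved the same way, all 10 with a lower mean in the squamous lines, beside 8831 of all 18132 genes. The list had a median difference of -0.38, beside 0.01 over all genes. In it 0 had an unadjusted p under 0.05, beside 4.22% of all genes that were lower with such a p. Its part in the result was not tested.

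The members correlated with each other over the lines, which is a description over 15 points that share array processing. The mean r over the 990 pairs of members was 0.37, beside 0.01 over all pairs of genes. Of the 990 pairs, 372 exceeded 0.5, and the share of all pairs of genes that did so was not computed. MCM6 and FEN1 were the closest pair (0.93). The licensing genes had a mean r of 0.80, with 0.92 between CDC6 and GMNN, and the MCM2-7 genes 0.68, with all 15 pairs above 0.5 and MCM4 and MCM6 at 0.91. CDC45 and MCM10 had an r of 0.81. Other complexes had lower values. ORC had a mean r of 0.11, with 0.67 between ORC1 and ORC6 and -0.28 between ORC3 and ORC5. The RFC subunits had a mean r of 0.10, with none of 10 pairs above 0.5, and RPA had 0.17. For RFC5 the probe set used had an r of 0.22 to 0.32 with the other probe sets of the gene. Polymerases delta and epsilon stood at 0.38, polymerase alpha-primase at 0.45, GINS at 0.45 and the nucleotide enzymes at 0.47.

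**Figure D5:**
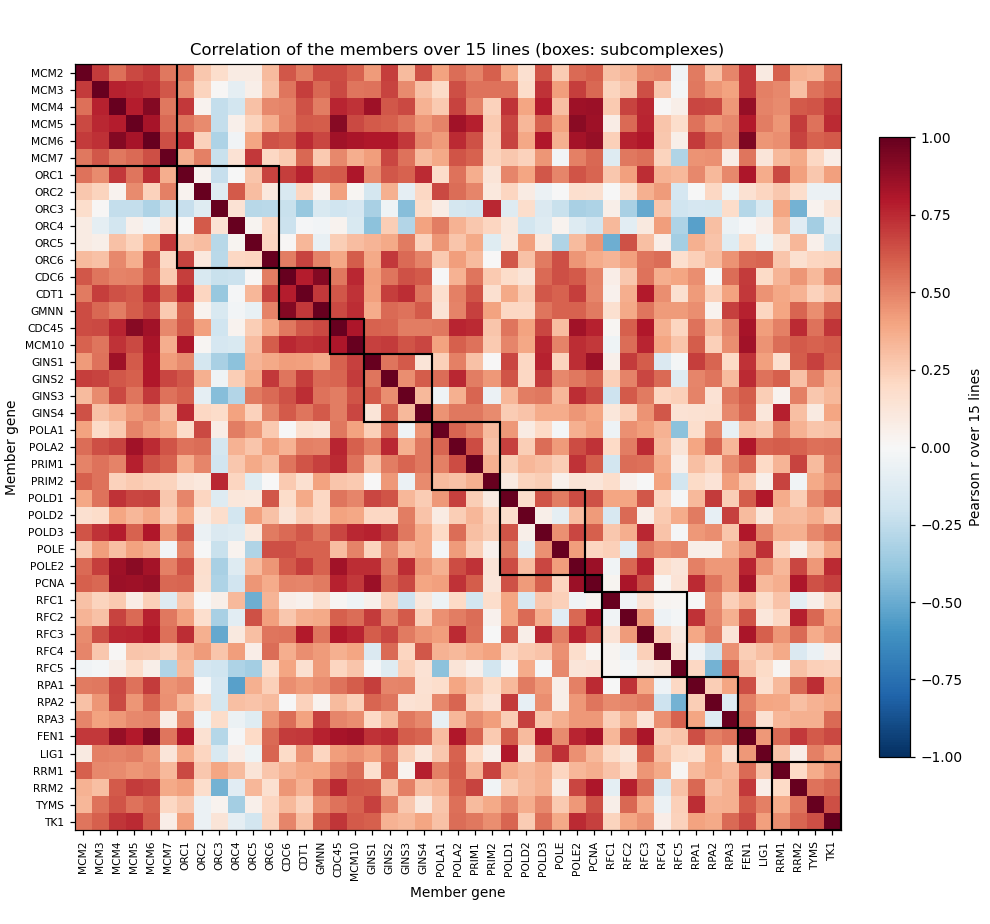
Pearson r between members over the 15 lines, ordered and boxed by subcomplex. The MCM2-7 and licensing boxes are filled with high values (mean r of 0.68 and 0.80), while the ORC and RFC boxes are pale (0.11 and 0.10).

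Each member was also set against the mean of the others. For 32 of the 45 r exceeded 0.5 and for 11 it exceeded 0.8, led by MCM6 (0.95), FEN1 (0.94), MCM10 (0.88) and CDC45 (0.87). The share of all genes above these limits was not computed, so the counts are not read as an excess. For 5 it was under 0.3, namely ORC2 (0.24), RFC5 (0.15), RFC1 (0.14), ORC4 (0.03) and ORC3 (-0.21). The RFC5 value rests on its brightest probe set, which had an r of only 0.22 to 0.32 with the other RFC5 probe sets. ORC3 was closest to PRIM2, with an r of 0.75, and PRIM2, the large primase subunit, had the next lowest difference between radiation classes (-0.27 ± 0.21).

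Outside the 45 genes, 30 of 31 other replication genes were measured. In the radioresistant lines 25 of these were higher, beside 48.3% of all genes, and 5 were lower. An unadjusted p under 0.05 was found for 2, both higher, beside 1.43% of all genes. These were MCM8, an MCM-like helicase subunit used in recombination (0.79 ± 0.29, exact permutation p = 0.0221), and CDC7, the kinase that activates the MCM ring (0.75 ± 0.29, exact permutation p = 0.0280). In the squamous lines 28 of the 30 were lower and 2 were higher, as were 51.3% of all genes. Of the 28, 7 had an unadjusted p under 0.05, beside 4.22% of all genes that were lower with such a p. Among the 7 were CDC7 (-1.21 ± 0.33), WDHD1 (-0.99 ± 0.29), DSCC1 (-0.74 ± 0.23) and TOP1 (-0.80 ± 0.26). In a list of 17 genes of the E2F and RB pathway, which also holds cyclins A and E and CDK2, 15 had a lower mean in the squamous lines. The other 2 had a higher mean, beside 51.3% of all genes. Of the 15, 3 had an unadjusted p under 0.05, again beside 4.22% of all genes. The highest was E2F7, with a difference of 0.79, and the lowest was E2F8, averaging 5.57 ± 0.97 in the squamous lines and 7.92 ± 0.80 in the adenocarcinoma lines (SD, n = 3 and 9). E2F1 averaged 6.00 ± 0.29 in the squamous lines and 6.87 ± 0.35 in the adenocarcinoma lines. Between radiation classes 14 of the 17 were higher in the radioresistant lines, beside 48.3% of all genes. Of these, 0 had an unadjusted p under 0.05, beside 1.43% of all genes.

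Over the 15 lines the mean of the members had an r of 0.93 with the mean of the other replication genes and 0.93 with that of the E2F and RB list. It had an r of 0.54 with the mean of the proliferation genes and 0.37 with MKI67. The 10 genes outside the list with the highest r to the mean of the members were HELLS (0.89), PSMD12 (0.89), XRCC2 (0.87), E2F8 (0.86), BRCA1 (0.85), RUVBL2 (0.84), POLR3K (0.84), HSBP1 (0.84), TFPT (0.84) and CLSPN (0.84). HELLS, a chromatin remodelling factor, ranged from 6.12 in Calu1 to 9.19 in A549. BRCA1 and XRCC2, which act in homologous recombination, were both lowest in Calu1 (6.84 and 5.84) and highest in H1975 (8.99 and 7.75).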

How the data were processed

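RNA of 15 NSCLC lines was measured on 1 PrimeView array each. RMA had been applied by the authors (affy 1.64.0 in the submitters' processing notes), so the deposited table holds normalised log2 signals, 1 per probe set and line. RMA subtracts background and makes all arrays follow 1 distribution, which removes differences in total signal and compresses low signals. Array medians lay between 5.87 and 5.93. Precision is limited by the number of arrays. No batch was known. The study's methods name dyes and a reference RNA and the labels name biotin labelling without one. No ratio to a reference was formed here. Radiation class, SF2 and histology came from the study's text, joined to the labels by line name.

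Of 49495 probe sets, 100 ERCC and 102 AFFX controls were left out, and 44988 with 1 annotated gene were kept. The brightest probe set per gene over the lines was used for each of 18132 genes. The 45 members had 116 probe sets, and 64 of the 71 others had an r over 0.5 with the brightest. The exceptions were probe sets of ORC4, RFC3, RFC4, RFC5 and RPA1, the lowest being that of RPA1 (r of -0.33). Of the 71, 10 gave a difference of opposite sign to the brightest between radiation classes, and 10 did so between squamous and adenocarcinoma lines. Differences were fitted on all genes with limma 3.58.1 (lmFit, eBayes) and adjusted by Benjamini-Hochberg over all genes, with two-sided exact permutation tests for single members and 100000 permutations for correlations. The limma steps were tested on simulated data. Lines are the replicates, so p-values measure the spread between lines. The members, lists and tests were chosen with earlier results of these data known. All 45 members may be named, with values per group for those of lowest p, of largest and smallest SD and with a line far from its group. Outside the members, the 10 genes most like their mean and up to 4 genes of lowest p per list were named. Alternatives covered the test, array weights, array centring, dim genes, probe set averaging, histology, the rank of SF2 and leaving out lines.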

Additional observations from a re-analysis of the deposited data

Results flagged for a closer look

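Of 138 groups of lines looked at, 13 had a value far from the others by Dixon's criterion, where chance would mark about 1 in 20, or 6.9. The groups share lines and the members correlate, so 1 line can be flagged again and again. With no share over all genes beside it, the count is not read as an excess. Of the 13 flagged values, 5 were in H460, the large cell line, as the lowest of the 8 radioresistant lines. They were 7.38 for MCM2, 8.35 for MCM4, 9.25 for MCM6, 9.11 for GMNN and 7.93 for FEN1. The next radioresistant lines read 8.56, 9.96, 10.15, 10.26 and 9.53 for these genes. Calu1 was the lowest of the 7 radiosensitive lines for CDT1 (5.34, next 7.31) and RFC3 (6.56, next 8.67), and H520 for TK1 (8.22, next 9.54). Calu3 was the highest of the 9 adenocarcinoma lines for CDC6 (12.37) and GMNN (12.01) and the highest of the radiosensitive lines for RFC5 (9.51, next 8.94). Among the adenocarcinoma lines HC827 was lowest for ORC3 (7.42, next 8.56) and H1975 highest for POLD2 (11.12, next 10.55).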

How the results depend on the processing

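The members with an unadjusted p under 0.05 in a comparison kept their direction under all alternatives run. Under another setting they kept that p 178 times and lost it 50 times, and with 1 line left out they kept it 319 times and lost it 74 times. Between radiation classes the members with an unadjusted p under 0.05 (8) were 2 in adenocarcinoma lines only, 4 without H1650 and H520 and 0 without the squamous lines, and between 2 (without Calu1) and 15 (without H460) with 1 line left out. Without the squamous lines the median difference was 0.13 in place of 0.33. For the SF2 slope this count (3) was 5 on ranks of SF2 and 6 without H1781 and H3122, and ranged from 2 to 9 with 1 line left out. Between squamous and adenocarcinoma lines it (19) was 8 against radiosensitive adenocarcinoma lines and 27 with array weights, where the median was -0.75 in place of -0.54. With 1 line left out the count ranged from 7 (without Calu1) to 24 (without H226). In the comparison of radiation classes the squamous line H520 had the lowest array weight (0.43, next 0.80 in H226). The members above 0 (5) were 3 on the mean of probe sets and 3 without H1781 and H3122, and ranged from 3 to 8 with 1 line left out. Genes with an adjusted p under 0.05, 0 of all genes over 12 lines, were 10 against all other lines, 2 against radiosensitive adenocarcinoma lines, 20 with array weights, 1 by a plain t-test, 1 without H1781 and H3122 and 2 without dim genes, and 0 to 30 (without H520) with 1 line left out. None of these alternatives gave a member an adjusted p under 0.05. The cause of these shifts was not tested, beyond the fewer lines that some alternatives hold. The line means moved by less than the spread between lines under both of their alternatives.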

Other observations

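Among the replication genes outside the 45, MCM8 had a slope of 0.251 ± 0.0612 log2 units per 0.1 of SF2 (SE; adjusted p = 0.998 by limma). It averaged 8.56 ± 0.68 in the radioresistant lines and 7.76 ± 0.46 in the radiosensitive lines (SD, n = 8 and 7). DBF4, the partner of the CDC7 kinase, had a slope of 0.153 ± 0.0569. Of the 10 proliferation genes, 9 had a slope above 0, beside 49.0% of all genes. AURKB, a kinase of the chromosomal passenger complex, had a slope of 0.227 ± 0.0802, and CCNB1, the mitotic cyclin, of 0.173 ± 0.0783. None of these slopes passed after adjustment over all genes.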
